A study of Homo sapiens with 9 samples.

Results

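The transcriptional responses of HT-29 cells to ADP-heptose and to flagellin were set directly against each other, stimulus against stimulus and over all genes of the count table, using the 3 ADP-heptose and the 3 flagellin libraries out of the 9 libraries of the series. HT-29 is an established line of human colorectal adenocarcinoma cells, and the cells of every group were wild type. They received 500 ng/mL ADP-L-heptose or 500 ng/mL Flagellin-ST ultrapure, a purified flagellin, for 2.5 h. The remaining 3 libraries came from non-stimulated cells, and their levels are given only as a background. The 2 doses are equal by mass and not by number of molecules, and a single dose and time point were sequenced, so a stronger agent and a more effective dose cannot be told apart.

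Both agents are products of bacteria that epithelial cells can sense. ADP-heptose is a sugar nucleotide from the synthesis of lipopolysaccharide; once in the cytosol it binds the kinase ALPK1, which phosphorylates the adaptor TIFA, and TIFA assemblies engage TRAF ubiquitin ligases and the kinase TAK1 to activate NF-κB and MAP kinases. Flagellin, the protein of the bacterial flagellum, is bound outside the cell by TLR5, which signals to the same transcription factors through MyD88 and the IRAK kinases. The comparison therefore asks which genes differ between a stimulus of a cytosolic and a stimulus of a surface sensor, at a single dose of each. These sensors share much of their downstream pathway.

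The ADP-heptose libraries were deeper, with 50054773 to 58272772 counts against 30770448 to 38304035 in the flagellin libraries. Of the colon epithelial markers, KRT8, KRT18, KRT19, KRT20, EPCAM, CDH1, VIL1 and LGALS4 were abundant in every library, CDX2 was low at 12.1 to 54.9 normalized counts and CDX1 was at 0 in all flagellin libraries. Of 12 markers of leukocytes, endothelium and fibroblasts only COL1A1 was expressed well enough to be tested, with summed levels of the list of 692.4 to 778.4 in ADP-heptose and 517.2 to 653.5 in flagellin libraries, and CD3E, CDH5, COL1A2 and DCN had no count in any library. ADP-heptose replicate 3 stood apart: over 11047 genes the SD of its log2 differences was 0.363 and 0.371 against the other replicates of its group, which differed from each other by 0.109, while flagellin replicates differed by 0.139 to 0.153. Replicates 1 and 2 differed from the flagellin libraries by 0.354 to 0.362. Replicate 3 was thus about as far from its own group as replicates 1 and 2 were from flagellin. The mitochondrial share of replicate 3 was 7.31%, and that of the other libraries compared was 7.88% to 8.25%. Values without this library are therefore given beside the results that rest on it. Where a transcript is lower in bulk RNA, fewer cells that express it and less RNA per cell cannot be told apart.

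Far more genes were higher with ADP-heptose than were higher with flagellin. Of 17354 genes tested with edgeR's quasi-likelihood test, 347 (2.0% of those tested) were higher with ADP-heptose and 37 (0.213%) were lower, at an adjusted p under 0.05 and a difference of at least 2-fold. The fitted difference reached 4-fold for 138 of the higher genes and for 6 of the lower ones, and 16-fold for 17 higher genes. Of these 17 only CXCL8, TNF, CSF2 and PLAU had a mean level of at least 1 log2 CPM, a scale corrected for depth. The others had few counts with flagellin, so their folds are imprecise. All 6 lower genes were scarce, at a mean log2 CPM of -2.42 to -1.09. Among lower genes at 1 log2 CPM or more the largest log2 difference was -1.99. The median log2 difference was 1.72 among the higher genes and -1.34 among the lower ones, beside 0.007 over all genes tested. By the adjusted p alone, with no minimum fold, 735 genes (4.24%) passed as higher and 269 (1.55%) as lower, and it is against these shares that the gene lists are read. They apply to the fit of all 6 libraries only. Without ADP-heptose replicate 3 far more genes passed in both directions, and without any other single library fewer did. List counts from those fits are therefore not to be read against these shares. In all 384 called genes the 3 ADP-heptose libraries did not overlap with the 3 flagellin libraries, which was also so for 27.1% of all genes tested. In the plot of fold change against mean level the higher genes reach into the abundant transcripts of the cell, while most lower genes are of low or middle abundance.

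**Figure D1:**
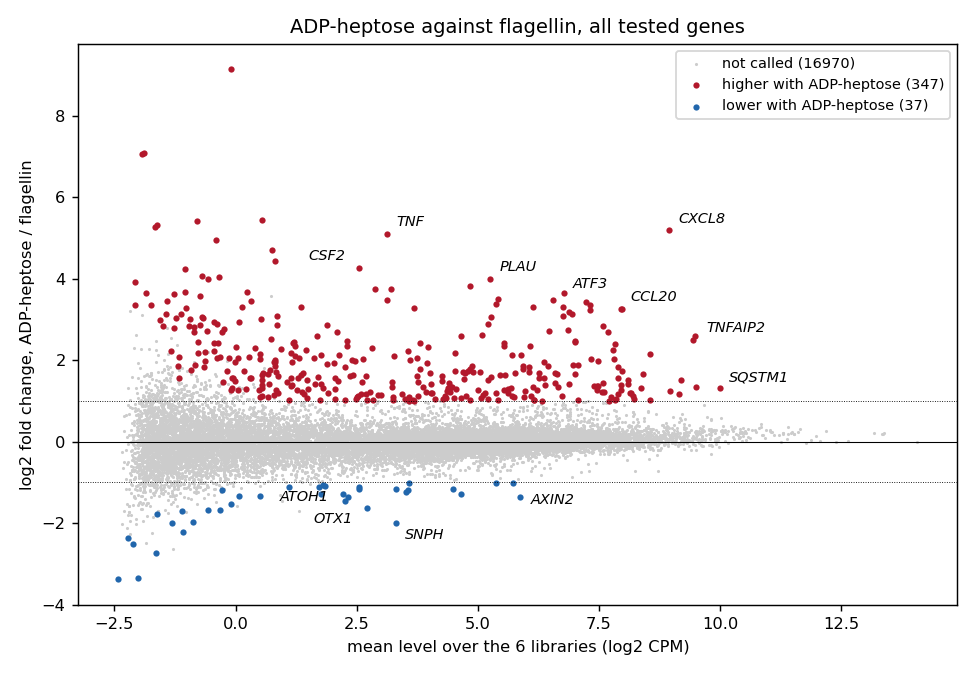
Mean level over the 6 libraries (log2 CPM) against the log2 fold change of ADP-heptose over flagellin for each of the 17354 genes tested; red points are the 347 genes called higher with ADP-heptose, blue points the 37 called lower, grey points the rest, and dotted lines mark 2-fold. Among well-expressed genes the red points extend to CXCL8 at 5.19 and the blue points to SNPH at -1.99.

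The number of lower genes rested on single libraries. Without ADP-heptose replicate 3 there were 449 higher and 61 lower genes, of which 332 and 30 were among those called with all libraries. Without flagellin replicate 1, 2 or 3 the lower genes numbered 20, 21 and 17, and the higher genes 288, 286 and 293. No called gene changed direction under any of 16 alternatives, and 222 higher and 12 lower genes were called under each of them.

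The transcript with the largest fold among well-expressed genes, those with a mean of at least 1 on the log2 CPM scale of reads corrected for depth, was CXCL8, the gene of the neutrophil chemokine interleukin 8 (ENSG00000169429, chromosome 4, 73740506 to 73743716). It had 38180, 40760 and 38880 normalized counts, that is counts scaled to a common library size, in the ADP-heptose libraries and 1097, 1080 and 1050 in the flagellin libraries. The groups lay 36.5-fold apart (log2 difference 5.19, SE 0.09, edgeR adjusted p = 1.8e-08), with non-stimulated libraries at 141.4 to 242.2. TNF, a cytokine that itself activates NF-κB (ENSG00000232810, chromosome 6, 31575567 to 31578336), had 693.2, 717.1 and 612.9 normalized counts with ADP-heptose and 16.6, 18.3 and 24.2 with flagellin. No read of TNF was counted in non-stimulated cells, flagellin-stimulated cells held a little of it, and the difference between the stimuli was 34.4-fold (log2 5.11, SE 0.17, edgeR adjusted p = 3.3e-07). CCL20, which attracts lymphocytes and dendritic cells through CCR6 (ENSG00000115009, chromosome 2, 227805739 to 227817564), stood at 17660, 19130 and 18790 against 2005, 1949 and 1813. Here flagellin-stimulated cells were already far above the 66.0 to 75.7 of non-stimulated cells, and ADP-heptose lay a further 9.64-fold higher (edgeR adjusted p = 8.3e-08).

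The promoters of the 2 chemokine genes above and of SNPH, the well-expressed lower gene with the largest fold, are shown because these 3 genes lie towards the ends of the comparison. Each is the RefSeq sequence of GRCh38.p14 from 250 bases before to 50 bases after the annotated start, 5′ to 3′ on the strand of the gene, and lies at chr4:73740319-73740618 (plus strand) for CXCL8, chr2:227813592-227813891 (plus strand) for CCL20 and chr20:1266044-1266343 (plus strand) for SNPH. The RefSeq starts are not those of the GENCODE 29 gene positions printed here, and the CCL20 window lies within the longer gene that GENCODE gives. Capitals mark matches to the AP-1 motif TGANTCA, to the cyclic AMP response element TGACGTCA or to the NF-κB consensus, searched on both strands. Only full matches were marked, so a window without a mark, that of CXCL8 for NF-κB included, can still hold a site that departs from the motif.
CXCL8: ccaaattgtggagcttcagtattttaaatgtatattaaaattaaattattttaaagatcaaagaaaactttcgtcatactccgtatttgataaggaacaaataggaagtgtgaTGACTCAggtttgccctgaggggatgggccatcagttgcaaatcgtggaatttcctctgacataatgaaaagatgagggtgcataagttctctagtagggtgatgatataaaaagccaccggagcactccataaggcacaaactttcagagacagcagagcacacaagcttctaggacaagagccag
CCL20: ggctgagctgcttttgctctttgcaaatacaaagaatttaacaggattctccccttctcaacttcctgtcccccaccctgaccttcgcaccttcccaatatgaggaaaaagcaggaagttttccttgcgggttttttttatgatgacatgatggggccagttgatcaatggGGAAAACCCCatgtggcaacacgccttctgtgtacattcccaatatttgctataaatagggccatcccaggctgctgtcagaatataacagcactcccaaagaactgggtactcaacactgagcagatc
SNPH: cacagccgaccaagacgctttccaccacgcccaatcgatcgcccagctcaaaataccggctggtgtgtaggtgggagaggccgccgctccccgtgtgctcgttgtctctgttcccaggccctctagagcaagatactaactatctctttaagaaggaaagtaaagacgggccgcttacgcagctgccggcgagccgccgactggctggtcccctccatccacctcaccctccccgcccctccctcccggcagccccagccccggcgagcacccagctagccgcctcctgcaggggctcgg
The CXCL8 window held an AP-1 match that begins at position -137 from the start, and the CCL20 window an NF-κB consensus match that begins at -79. The SNPH window held none of the 3 motifs in these letters. The window of TIFA, a gene that was higher with ADP-heptose, was searched as well and is not printed. It held none of them either. RefSeq promoters were matched by symbol for 11592 of the 17354 genes tested, for 227 of the 347 higher genes and for 22 of the 37 lower genes. The NF-κB consensus was in 11.3% of all 35116 promoters of the same length, in 13.1% of those of tested genes, in 24.7% of those of the higher genes and in 1 of the 22 of the lower genes. AP-1 was in 7.71%, 4.86% and 11.5% of all, tested and higher promoters and the cyclic AMP element in 1.85%, 3.13% and 4.41%. In the lower genes AP-1 and the cyclic AMP element were each in 1 of the 22 promoters (4.55%). These shares describe letters in a window and were not tested.

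The 10 well-expressed genes with the largest folds in favour of ADP-heptose lay 11.2-fold to 36.5-fold above flagellin, and their values by library are plotted beside those of the most abundant higher genes. Besides CXCL8 and TNF they were CSF2 and CSF1, growth factors of granulocytes and macrophages, PLAU, the urokinase that activates plasminogen, LTB, a membrane partner of lymphotoxin, VCAM1, an adhesion molecule for leukocytes, the matrix metalloproteinase MMP10, the stress transcription factor ATF3 and TNFAIP3, the ubiquitin-editing enzyme A20 that restrains NF-κB. PLAU had 2818, 2926 and 3037 normalized counts with ADP-heptose and 179.9, 187.6 and 178.6 with flagellin (16.1-fold). ATF3 had 7963, 8447 and 8425 against 692.8, 698 and 597.2, and in non-stimulated cells its level was 491.4 to 524.4 (12.5-fold between the stimuli). The flagellin mean of ATF3, 662.7, was thus not far above the non-stimulated mean of 508.8, while for LTB and CSF1 these levels were far apart. LTB had 1911, 1850 and 2735 with ADP-heptose, 176.8, 132.7 and 144.2 with flagellin and 1.08 to 7.85 without stimulation. CSF1 had 3423, 3231 and 2941, then 297.8, 279.2 and 275.6, and 20.2 to 31.4 without stimulation. CSF1 and TNFAIP3 had the smallest log2 differences of the 10, both 3.49.

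**Figure D2:**
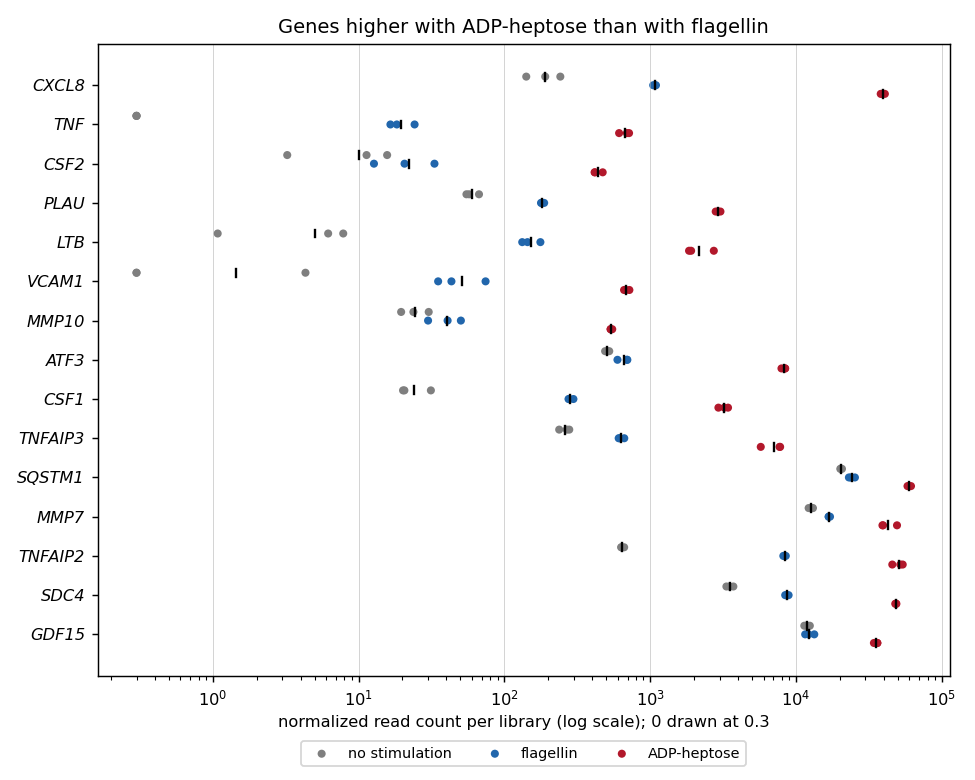
Normalized read count of each library (log scale) for the 10 genes with the largest folds and the 5 most abundant genes called higher with ADP-heptose; points are libraries, coloured by stimulus, and black ticks are group means. In all 15 genes the 3 ADP-heptose libraries lie above the 3 flagellin libraries, and for TNF the non-stimulated libraries are at 0.

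The 5 most abundant genes called higher were 2.48-fold to 6.06-fold above flagellin. SQSTM1, the autophagy receptor p62, had 59540, 58290 and 61590 normalized counts against 25400, 23100 and 23760. TNFAIP2, a gene named for its induction by TNF, had 54030, 52060 and 45840 against 8524, 8201 and 8359 and was at 633.3 to 663.8 in non-stimulated cells. SDC4, a cell-surface heparan sulfate proteoglycan, had 48900, 48600 and 48040 against 8910, 8601 and 8446. For these genes the groups were separated by far more than their replicates. MMP7, a metalloproteinase of epithelia, was 2.53-fold higher and GDF15, a stress-responsive member of the TGF-β family, 2.87-fold higher, and GDF15 had 12380 normalized counts on average with flagellin and 11880 without stimulation.

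For 17 genes called higher, every flagellin library had at most 3 counts. The fitted values at the top left of the plot of fold change against level belong to such genes and are not precise folds. In 3 of them, chosen here after their values were seen, no flagellin library held a count, and a floor of 3 counts over the group gives a lower bound. By this bound OR2I1P, an olfactory receptor locus, was at least 57.9-fold higher, AMHR2, a receptor of anti-Müllerian hormone, at least 14.1-fold higher and BDKRB1, a bradykinin receptor, at least 13.6-fold higher. The bound takes the ADP-heptose mean as it stands, and the ADP-heptose libraries of OR2I1P ran from 50.7 to 80.8 normalized counts. The antisense gene ICAM4-AS1, chosen in the same way, had 131, 124 and 130 counts with ADP-heptose and 3, 0 and 3 with flagellin. Since the strand setting of the counting was not given in the sources used here, reads of ICAM4-AS1 and of the genes on the other strand cannot be told apart. The same holds for OR2I1P and any gene on the other strand of its locus, so its reads need not come from the receptor gene.

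Most tested receptors and adaptors of the sensing pathways did not pass the test. Of 8 tested genes of ADP-heptose sensing 2 were higher and none was lower. TIFA (ENSG00000145365, chromosome 4, 112274542 to 112285903) had 2261, 2238 and 2237 normalized counts with ADP-heptose and 722.8, 738 and 908.5 with flagellin, a log2 difference of 1.51 (SE 0.11, edgeR adjusted p = 3.9e-05). ALPK1, the sensor itself, had 299.1, 295.7 and 270.4 against 234.7, 341 and 312.6, and these groups overlapped (log2 difference -0.04, edgeR adjusted p = 0.927). TIFA and ALPK1 overlap at their starts on opposite strands, so reads in the shared stretch cannot be assigned to either. TRAF2, a ubiquitin ligase of the pathway, differed by 0.66 (edgeR adjusted p = 0.027) but by 0.47 without ADP-heptose replicate 3, and passed in 12 of 16 alternatives, not without any one flagellin library. TRAF6, TAB1, TAB2, TAB3 and MAP3K7, the gene of TAK1, had log2 differences of -0.08 to 0.09 and did not pass the test.

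Of 6 tested genes of flagellin sensing IRAK2 was higher with ADP-heptose and TIRAP lower. IRAK2, the inducible kinase of the MyD88 complex, had 6090, 5948 and 5145 normalized counts with ADP-heptose and 2103, 2157 and 2099 with flagellin (log2 1.43, edgeR adjusted p = 1.7e-05). TIRAP, a bridging adaptor, had 613.2, 612.1 and 524 against 788, 776.9 and 830.7 (log2 -0.45, edgeR adjusted p = 0.031) and passed in 9 of 16 alternatives, not when any library other than ADP-heptose replicate 3 was left out. MYD88, IRAK1, IRAK4 and NLRC4 did not pass. TLR5, the flagellin receptor, was scarcely counted: its 6 libraries held 4, 2 and 12 counts with ADP-heptose and 14, 4 and 0 with flagellin, too few to be tested.

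The genes of NF-κB itself and most genes of its inhibitors were higher with ADP-heptose. All 5 subunits passed, with a median log2 difference of 1.43: NFKB2, the precursor of p52, had 23700, 23270 and 28040 normalized counts against 5905, 5369 and 5449, and RELB 9831, 9380 and 12870 against 2743, 2572 and 2519. REL had 1152, 1274 and 464.4 against 324.7, 316.9 and 437.7 and an edgeR adjusted p of 0.041, and it passed in 7 of 16 alternatives, not when any library other than ADP-heptose replicate 3 was left out. RELA, which most resting cells already hold, differed least among them, by 0.85. Of 11 tested IκB proteins and feedback inhibitors 9 were higher and none lower, with a median of 1.05. NFKBIA, the inhibitor IκBα, had 18580, 18410 and 18690 against 2056, 1910 and 1871, a log2 difference of 3.25 (SE 0.08, edgeR adjusted p = 8.3e-08). BCL3 differed by 2.69, NFKBIE by 2.35 and the deubiquitinase gene CYLD by 1.32, while the linear-chain deubiquitinase OTULIN had a difference of -0.09. The kinases that act upstream were less moved: IKBKE, MAP3K8 and TANK were higher and CHUK, IKBKB, IKBKG, MAP3K14 and TBK1 did not pass. Among TRAF adaptors and inhibitors of apoptosis 6 of 9 were higher, led by BIRC3, the ubiquitin ligase cIAP2, at 14630, 15430 and 11290 against 1960, 1848 and 1951.

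The 3 lists with the highest medians held chemokines, interleukins and colony-stimulating factors. All 4 tested chemokines of the ELR CXC family, which attract neutrophils, were higher, with a median log2 difference of 3.34: next to CXCL8, CXCL1 had 11840, 11350 and 11960 normalized counts against 1161, 1303 and 1290, CXCL2 3180, 2957 and 3156 against 299.9, 280.3 and 316.5, and CXCL3 5441, 5621 and 4558 against 552.2, 503.5 and 525.7. These 3 genes are near-identical copies, and how reads that fit several of them were counted is not given in the sources used here, so the split between them is uncertain. Of 9 other chemokines 5 were higher, among them CX3CL1, the membrane-bound fractalkine, by 3.18 and CXCL10, a ligand of CXCR3 on T cells, by 3.67 from a mean of 6.48 normalized counts with flagellin. CXCL16, CCL28, CCL15 and CXCL11 did not pass.

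Of 14 tested interleukins and colony-stimulating factors 9 were higher and none lower. IL17C, an epithelial cytokine that acts on epithelium, differed by 3.48 and IL32 by 3.27, with IL32 at 797.3, 827.1 and 1174 normalized counts against 70.3, 129.3 and 90.6. LIF differed by 1.86 and IL1A by 2.69, while IL18 and IL33, which epithelia hold in store, had differences of 0.21 and -0.28. IL23A differed by 1.72 with an adjusted p of 0.018 and passed in 11 of 16 alternatives. Of 8 TNF superfamily ligands TNF, LTA, LTB, TNFSF18 and TNFSF10 were higher. TNF and LTB are neighbours on chromosome 6 with starts at 31575567 and 31580525, and LTA had 46, 46 and 70 counts with ADP-heptose and 2, 2 and 3 with flagellin. Of 13 receptors of the TNF superfamily 6 were higher with all libraries and 3 without ADP-heptose replicate 1 or without any one flagellin library, and 8 were higher and 2 lower without ADP-heptose replicate 3. The receptor TNFRSF9 had 137.5, 136.4 and 103.2 normalized counts against 5.17, 6.87 and 5.10, and TNFRSF10B, a death receptor for TRAIL, differed by 1.41.

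Most immediate-early transcription factors tested, which cells switch on without new protein synthesis, were higher with ADP-heptose. Of 12 AP-1 genes 9 passed, all higher, with a median log2 difference of 1.46. FOSL1 had 8771, 8543 and 9400 normalized counts against 1616, 1611 and 1590, and JUN 12230, 11810 and 11180 against 2974, 2846 and 3163. In both genes the flagellin level was near the non-stimulated one, at 1344 to 1546 for FOSL1 and 2692 to 2896 for JUN. FOS differed by 0.45 (edgeR adjusted p = 0.026) and passed in 8 of 16 alternatives, and BATF, BATF2 and BATF3 did not pass. Of 18 other immediate-early genes 13 were higher, with IER3 at 3.12, EGR1 at 1.77 and KLF6 at 1.13, while MYC had a difference of -0.25 that did not pass. Genes that end such signals were among the higher ones too. DUSP1, DUSP5, DUSP8, DUSP10 and DUSP16, phosphatases of MAP kinases, were higher by 1.01 to 2.88, and the other 5 phosphatases tested, among them DUSP6, were not. The mRNA decay factors ZFP36, ZC3H12A, ZC3H12C and ZFP36L1 were higher by 0.90 to 1.88, out of 7 tested.

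Growth factor genes were split. AREG and EREG, ligands of the EGF receptor, were higher, with AREG at 13950, 13590 and 16730 normalized counts against 3846, 3512 and 3468, and so were HBEGF and ERRFI1, the latter an inhibitor of the receptor. CXCL8, CXCL1, CXCL3, CXCL2, EREG and AREG lie in this order on chromosome 4 between positions 73740506 and 74455009. SPRY1 and SPRY2, inhibitors of signalling to ERK, were lower. SPRY1 had 274.9, 275.7 and 209.1 against 590.5, 571 and 538.5, and SPRY2 1014, 985.7 and 999 against 1561, 1629 and 1619 (log2 -0.68, edgeR adjusted p = 0.00079). The list thus held 4 higher and 2 lower genes of 12 tested, and 7 higher without ADP-heptose replicate 3.

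Genes through which epithelial cells meet lymphocytes were in part higher. Of 19 genes of antigen presentation 7 were higher, with a median log2 difference of 0.40: HLA-B by 1.13, TAP1, the peptide transporter, by 1.05 and B2M by 0.45. The HLA class I genes are close copies of each other, and without ADP-heptose replicate 3 there were 11 higher genes with a median of 0.31. ICAM1, the ligand of the integrin LFA-1, had 12520, 12200 and 11090 normalized counts against 1279, 1192 and 1045, and with VCAM1 it was 1 of the 2 leukocyte adhesion molecules that passed of 6 tested (4 without ADP-heptose replicate 3). Of 8 T-cell checkpoint ligands ICOSLG (1.61), PVR (0.42) and NECTIN2 (0.38) were higher, and only 1 of the 3 without any one flagellin library. CD274, the gene of PD-L1, had 31.7, 27.1 and 24.0 normalized counts with ADP-heptose and 18.6, 10.3 and 2.55 with flagellin. These groups did not overlap, yet the log2 difference of 1.35 (SE 0.52) had an adjusted p of 0.218 with edgeR and passed in none of 16 alternatives. Of 15 IRF and STAT factors 4 were higher, led by IRF1, a transcription factor of interferon responses, by 3.08, while STAT2 had a difference of -0.11. Of 16 interferon-stimulated genes ISG20 and IFIH1 were higher, and IFIT2, at 76.7, 102.9 and 99.6 against 174.8, 170.5 and 140.4, was lower (edgeR adjusted p = 0.032, passing in 8 of 16 alternatives, and not when any library other than ADP-heptose replicate 3 was left out).

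Genes of growth arrest and cell death were in part higher. Of 22 p53 targets 11 were higher and SESN1 was lower, with a median log2 difference of 0.26. CDKN1A, the cell cycle inhibitor p21, had 15090, 15360 and 16550 normalized counts against 3229, 2766 and 2912, and BBC3 and PMAIP1, the proapoptotic PUMA and NOXA, differed by 1.88 and 1.32. MDM2, BAX, FAS and ZMAT3, which p53 also regulates, had differences of 0.07, 0.10, 0.08 and -0.26 and did not pass. Several of the members that did pass, such as GDF15, PLK2, PLK3, BTG2, SERTAD1 and SESN2, are also known as stress or early response genes. In the list of the unfolded protein and integrated stress responses ATF3, PPP1R15A, CHAC1, SESN2, XBP1 and HERPUD1 were higher out of 12, and HSPA5, the chaperone BiP, had a difference of 0.15. That list had 10 higher genes without ADP-heptose replicate 3. Of 14 genes of the BCL2 family BBC3, PMAIP1, BIK and MCL1 were higher and BMF, which is also proapoptotic, was lower (log2 -0.54, edgeR adjusted p = 0.031). BMF did not pass without ADP-heptose replicate 1 or 2 or flagellin replicate 1 or 3, and without ADP-heptose replicate 3 the list had 5 higher and 2 lower genes.

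No mismatch repair gene passed the test when all libraries were used. MSH6 had 2546, 2538 and 1927 normalized counts against 2700, 2750 and 2939 (log2 -0.26, edgeR adjusted p = 0.293), and PMS2 882.3, 829.2 and 818.4 against 964.8, 1011 and 1032 (log2 -0.25, edgeR adjusted p = 0.157). None of 8 mismatch repair genes and none of 22 S-phase genes passed. Without ADP-heptose replicate 3 the lower genes were 3 of 8, among them PMS2 (-0.23) and EXO1 (-0.27), and 4 of 22. In that fit many more genes passed as lower among all genes tested as well. Of 22 genes of G2 and mitosis KIF20A (-0.46) and CCNA2 (-0.32) were lower with all libraries. Their number was 13, with 1 higher, without ADP-heptose replicate 3, 1 without replicate 1 and 0 without replicate 2 or without any one flagellin library. The median of the list was -0.20 with all libraries and -0.15 without replicate 3.

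The well-expressed genes with the largest folds in favour of flagellin included transcription factors of development, Wnt targets and SNPH. SNPH, the gene of syntaphilin, which anchors mitochondria to microtubules in axons (ENSG00000101298, chromosome 20, 1266280 to 1309328), had the largest of these folds. It had 175, 185.7 and 136.1 normalized counts with ADP-heptose and 637, 690 and 653.3 with flagellin, a log2 difference of -1.99 (SE 0.14, edgeR adjusted p = 3.4e-05). Non-stimulated cells held 67.0, 77.4 and 64.9, so SNPH stood 9.46-fold above the non-stimulated mean after flagellin and 2.37-fold above it after ADP-heptose. In the 12 other well-expressed lower genes that are plotted by library the flagellin and non-stimulated means were within 1.17-fold of each other and the ADP-heptose mean lay below both.

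**Figure D3:**
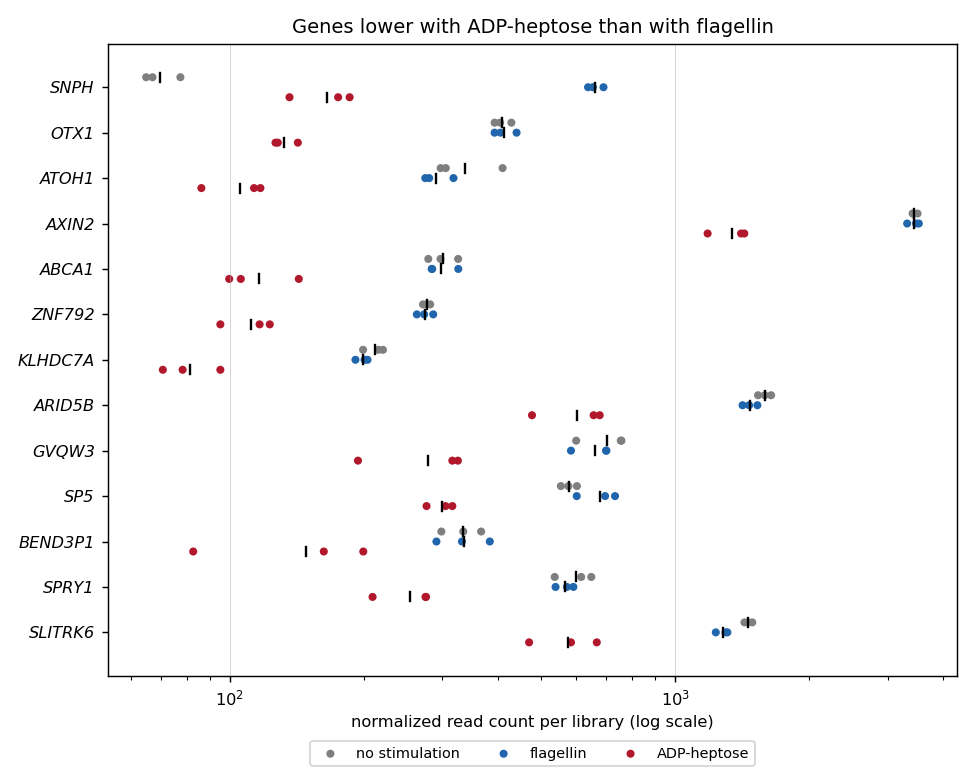
Normalized read count of each library (log scale) for 13 of the well-expressed genes with the largest folds in favour of flagellin; points are libraries, coloured by stimulus, and black ticks are group means. SNPH alone has its flagellin libraries far above both other groups, while in the other 12 genes the flagellin and non-stimulated libraries lie together.

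OTX1, a homeobox transcription factor, had 126.6, 142.1 and 128.1 normalized counts with ADP-heptose and 392.9, 405 and 440.2 with flagellin (log2 -1.64, edgeR adjusted p = 4.9e-05). ATOH1, the transcription factor that commits intestinal precursors to the secretory lineage, had 113.3, 117.1 and 86.3 against 280.2, 274.6 and 317.7 (log2 -1.46, edgeR adjusted p = 6.1e-04). It was the only lower gene of 16 in the Notch and secretory list, in which SOX9 was higher by 0.91 and HES1, DLL1, NOTCH1 and SPDEF did not pass. Without ADP-heptose replicate 3 that list had 4 higher and 4 lower genes.

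Wnt target genes were lower in 4 of 13 tested and higher in none, with a median log2 difference of -0.25. AXIN2, a scaffold that promotes β-catenin destruction and a common readout of Wnt activity, had 1405, 1429 and 1182 normalized counts with ADP-heptose and 3316, 3472 and 3522 with flagellin (log2 -1.36, SE 0.10, edgeR adjusted p = 4.2e-05), and its non-stimulated libraries held 3411 to 3499. SP5, a transcription factor downstream of Wnt, had 304.9, 276.4 and 315.8 against 600.8, 695.7 and 732.4. RNF43, which removes Wnt receptors from the surface, and LGR5, the stem cell receptor for R-spondins, were lower by smaller steps of -0.59 and -0.67, and LGR5 passed in 11 of 16 alternatives. NKD1, ASCL2, CCND1 and TCF7 had differences of 0.00, -0.12, -0.01 and 0.06 and did not pass. The count was 2 without flagellin replicate 1 and 6 without ADP-heptose replicate 3. Of 11 genes of TGF-β and BMP signalling, BMP4 (-0.71), ID2 (-0.55) and BAMBI (-0.80) were lower and BMP2 (1.79), SKIL (0.99) and SMAD3 (0.62) were higher. BMP4 had 9586, 9515 and 9103 normalized counts against 15860, 15080 and 15300, so the 2 related ligands BMP2 and BMP4 differed in opposite directions.

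The remaining named lower genes had other roles. ABCA1, the exporter of cholesterol, had 105.8, 142.8 and 99.6 normalized counts against 325.7, 283.8 and 284.6, while HMGCS1, of cholesterol synthesis, was higher by 0.69 in a list of 14, which had 2 higher genes with all libraries and 7 without ADP-heptose replicate 3. ARID5B, a chromatin-binding cofactor, had 676.5, 655.7 and 476.8 against 1416, 1465 and 1529. SLITRK6, a membrane protein of neuronal development, had 583.2, 666.4 and 469.7 against 1233, 1309 and 1296. Among the most abundant lower genes PPFIBP2, a liprin, had 1421, 1381 and 1513 against 2919, 2895 and 2844, and PPP1R3B, which targets a phosphatase to glycogen, 1186, 1249 and 975 against 2235, 2362 and 2237. Both were close to the 2-fold threshold. ZNF792, KLHDC7A, GVQW3 and BEND3P1 had log2 differences of -1.29, -1.29, -1.24 and -1.17. BEND3P1 is a pseudogene, and it lost its call without ADP-heptose replicate 1 (edgeR adjusted p = 0.08) and without flagellin replicate 1, 2 or 3 (0.152, 0.186 and 0.112). Without ADP-heptose replicate 3 it passed the adjusted p, but its log2 difference of -0.89 was short of 2-fold, so the call was lost there too. Of the 37 lower genes 16 were scarce, with a mean log2 CPM under 1, and none of these kept an adjusted p under 0.05 in all 16 alternatives.

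A minority of barrier and metabolic genes passed as higher. These lists held only 7 to 14 tested genes each, so a single gene that passed was already a larger share than the 4.24% of all genes tested. Of 12 mucins and trefoil factors MUC12, MUC2, TFF1 and MUC5AC were higher, by 0.90 to 1.22 on the log2 scale, and MUC5AC, a gel-forming mucin, had means of 43600 and 23420 normalized counts. PI3, the protease inhibitor elafin, was higher by 2.75, and with the complement gene C3 was 1 of the 2 that passed of 7 antimicrobial genes tested; C3 did not pass when any single library was left out. SOD2, the mitochondrial superoxide dismutase, was higher by 1.27, and TXNRD1 was the only other gene to pass of 10 antioxidant genes, HMOX1, NQO1 and GCLM among them. Without ADP-heptose replicate 3, 6 of the 10 were higher, and without any other single library 1 was. Of 14 glycolysis and hypoxia genes PFKFB3 and VEGFA were higher with adjusted p-values of 0.038 and 0.048, and neither passed when any library other than ADP-heptose replicate 3 was left out. In the list of synaptic exocytosis genes UNC13A was higher, at 180, 157.8 and 109.4 normalized counts against 35.2, 30.9 and 15.3, opposite to SNPH, and RAB3A, STX1A and SYT7 did not pass.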

How the data were processed

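Poly(A)-selected RNA was read by the authors as read pairs of 150 bases. They aligned it with HISAT2 and summarised it per gene with featureCounts, and the deposited values are the raw counts so obtained, with each library in a column of its own. Versions, genome build, strand setting and the treatment of multi-mapping reads are not given in the sources used here. The table has 62972 lines, in which 232 gene identifiers recurred with identical counts and were kept once, leaving 62710 genes. Gene types and positions are from GENCODE 29 (GRCh38), which holds 92.9% of the identifiers.

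The 6 libraries of ADP-heptose- and flagellin-stimulated cells entered the model of edgeR (4.0.16, under R 4.3.3), with TMM scaling, the default filterByExpr and the robust quasi-likelihood F test. A gene was called where its adjusted p (Benjamini-Hochberg, over all genes tested) was under 0.05 and its difference at least 2-fold, and members of lists were counted by the adjusted p alone. For normalized counts, each count was scaled to the geometric mean of the effective sizes of all 9 libraries. Non-stimulated libraries are shown as levels and entered 1 alternative fit. Library totals were 30770448 counts or more, and counting error weighs most on scarce genes. The sources speak of independent experiments without tying library numbers to them, so the p-values measure the spread between these libraries.

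Named genes were those with the 10 largest differences upwards and the 15 largest downwards (called, groups not overlapping, average level of 1 log2 CPM or more), the 5 most abundant called genes in each direction, members of the gene lists, and genes of interest to the study; a few genes that the rule names are not reported here. The comparison, the 37 functional lists and the marker lists were chosen with earlier results of these data known, and no list was tested as a set. Alternatives were other size factors (DESeq2's, library totals), the DESeq2 1.42.0 test, no filter or a mean of 10 counts, a test against 1.5-fold, a fit of all 9 libraries, a block for the replicate number, libraries thinned to 30770448 counts, offsets for transcript length and GC content (splines with 4 degrees of freedom), the adjusted p alone, and each library left out in turn. Simulated counts for this comparison held 16916 genes, of which 200 were changed, each by more than 2-fold. By the adjusted p alone edgeR found 89.5% of these at a share of 6.77% false calls. No simulated library stood apart as ADP-heptose replicate 3 does, so these rates cover neither smaller differences nor such a library. Promoters were read from RefSeq by symbol. Figures were drawn with matplotlib in Python.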

Additional observations from a re-analysis of the deposited data

How the results depend on the processing

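The number of higher genes (347) stayed within 1.5 times under every alternative except the adjusted p alone (735), and was 286 to 449 when single libraries were left out. The number of lower genes (37) was 65 with library totals, 63 with the DESeq2 test, 59 with length and GC offsets, 18 with the test against 1.5-fold and 269 by the adjusted p alone, and 17 to 61 when single libraries were left out. Library totals shifted the median of all genes to -0.112 on the log2 scale. By the adjusted p alone, leaving out ADP-heptose replicate 3 gave 1897 higher and 1146 lower genes, replicate 1 gave 559 and 145, replicate 2 gave 584 and 169, and flagellin replicates 1, 2 and 3 gave 477 and 99, 447 and 89, and 457 and 90. With length and GC offsets these were 1127 and 592, and with library totals 562 and 482. No called gene changed sign under any alternative, while 106 of 435 tested list members did under at least 1, none of them past the adjusted p with all libraries. Without ADP-heptose replicate 3, PMS2 passed the adjusted p (0.0359). Same-numbered libraries did not deviate together (correlations of -0.292, 0.147 and -0.216), so the numbers are not taken to pair the samples; with the number as a replicate block 312 genes were higher and 26 lower, and the genes named for their fold or abundance or as genes of the study kept their side of the threshold. With that block TNF receptors had 3 higher genes instead of 6, checkpoint ligands 1 instead of 3, glycolysis genes 0 instead of 2, and the genes of G2 and mitosis 0 lower instead of 2, and REL, TIRAP, IFIT2 and BMF did not pass. GVQW3 missed the threshold only in the test against 1.5-fold, and BEND3P1 there as well. The causes of these shifts were not tested. CD274, with at most 31.7 normalized counts, varied between the flagellin libraries from 18.6 to 2.55, and whether depth or that spread kept it from passing was not tested.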
